A study of Mus musculus with 18 samples.

Results

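The Eif genes encode the eukaryotic translation initiation factors and the proteins that hold them in check. They were taken here as every gene of the RNA table whose symbol starts with Eif and a digit from 1 to 6, leaving out the eIF2 kinases (Eif2ak) and the Y-linked Eif2s3y. This gave 54 of the 26599 listed genes, of which 50 passed the filter on low values and were tested. The symbols are those of an older gene set, so 5 of the 54 (Eif2c1 to Eif2c5) belong to the Argonaute family of small RNA effectors and are not initiation factors. The reference gene table now gives Eif2c1 to Eif2c4 as Ago1 to Ago4. Membership followed from the symbol, with no limit on a measured value.

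Initiation starts when eIF2 brings the initiator methionyl-tRNA to the small ribosomal subunit, helped by eIF1, eIF1A, eIF5 and the large eIF3 complex. The eIF4F complex (eIF4E, eIF4G and eIF4A) binds the mRNA cap and draws that subunit to the message. Each round leaves eIF2 bound to GDP, and eIF2B recharges it. Phosphorylation of eIF2 blocks that exchange, which in red cell precursors is known as the way in which the heme-regulated kinase ties globin synthesis to the supply of heme.

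The cells were MEL, a mouse erythroleukemia line in which dimethyl sulfoxide (DMSO) sets off red cell maturation and hemoglobin synthesis. RNA came from cells kept for 5 days in 2% DMSO (day 5, 2 libraries) and from cells not yet given DMSO (day 0, 2 libraries), described as biological replicates and made as stranded RNA-seq of total RNA. Both groups are 1 cell line with no further genotype or agent named, so the p-values measure the spread between cultures of that line. Maps of PU.1 binding, of open chromatin and of polymerase contacts from the same study were not used here, because their regions are in mm9 and the gene positions at hand are in GRCm38.

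Values were FPKM, that is fragments scaled by transcript length and by library size, which allow levels to be compared between genes. They summed to 781468 to 787494 in the day 5 libraries and 758150 to 774686 in the day 0 libraries. Read depth is unknown. The erythroid markers behaved as the labels say: Hba-a1, Hbb-b1, Alas2 and Slc4a1 rose, while Gata1 and Klf1 did not pass. Of 6 myeloid markers Csf1r, Emr1, Lyz2 and Mpo were listed at 0 in all 4 libraries and Itgam at practically 0, and Sfpi1 was at 2.37 and 3.55 FPKM on day 5, against 55.5 and 101 FPKM on day 0. Among lymphoid markers, Thy1 was listed at 0 on day 5, against 5.57 and 2.04 FPKM on day 0, Cd79a was listed at 0 in 3 libraries and Cd3e in all 4. The 4 fibroblast or epithelial markers together held 0.192 and 0 FPKM on day 5, against 0.844 and 0.295 FPKM on day 0. In bulk RNA, fewer cells of a type and less RNA per cell cannot be told apart. FPKM give shares of a library, not amounts per cell.

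Day 5 was compared with day 0 to ask which initiation factor genes change as MEL cells turn to making hemoglobin. Of the 50 Eif genes tested, 12 fell, 0 rose and 38 did not pass (limma, Benjamini-Hochberg adjusted p under 0.05 over all 10736 genes tested). The genes that fell encode all 3 subunits of eIF2, 2 subunits of eIF2B, 5 subunits of eIF3, the start site factor eIF1A and the eIF4E-binding repressor Eif4ebp1. Over all genes, 7.81% were called lower and 10.7% higher, against 24.0% and 0% of the Eif genes. At an unadjusted p under 0.05, 22 of 50 Eif genes were lower and 5 higher, where 15.6% of all genes tested were lower and 23.0% higher. The median log2 fold change was -0.39 for the Eif genes and 0.15 for all genes tested, and 34 of 50 Eif genes had a value below 0, as did 42.1% of all genes tested.

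Eif genes are highly expressed, and high expression itself went with lower calls. Among the 2343 genes whose mean reached 50 FPKM, 17.9% were called lower and 9.90% higher, with a median log2 fold change of -0.18. Of the 39 Eif genes at that level 11, or 28.2%, were called lower, with a median of -0.41. This split by level was chosen after the values were seen. All 54 Eif genes together held 8648 and 8213 FPKM on day 5, against 11409 and 11325 FPKM on day 0, or 1.10% and 1.05% of all FPKM on day 5, against 1.47% and 1.49% on day 0. In the same libraries globin genes held 3.98% and 3.74% on day 5, against 0.217% and 0.134% on day 0, and mitochondrially encoded genes 8.46% and 10.3% on day 5, against 4.88% and 6.45% on day 0. In a further fit both groups were removed, each library was rescaled to the same total and the filter was reapplied. The median was then -0.30 for the Eif genes and 0.23 for all genes. Called lower were 11 of 50 Eif genes and 704 of all 10993 genes tested.

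**Figure D1:**
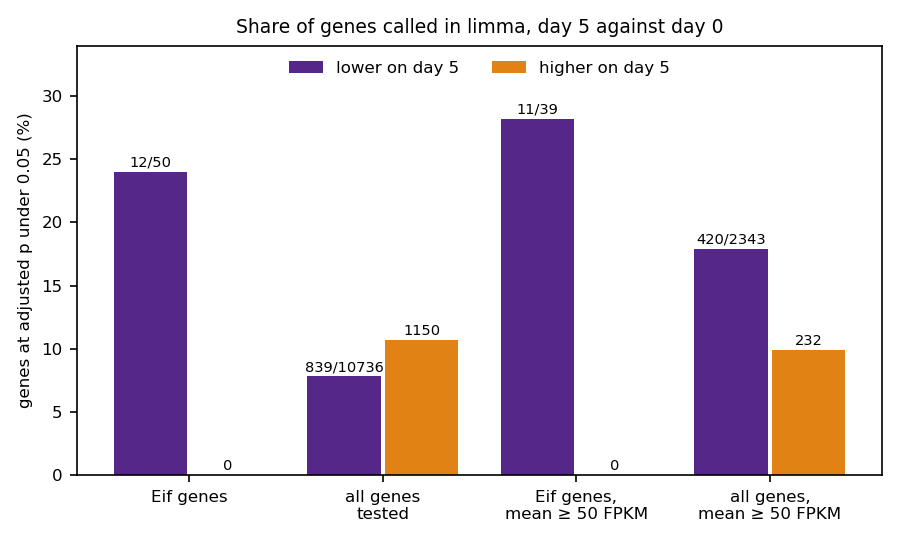
Bars give the percentage of genes called lower and higher on day 5 (limma adjusted p under 0.05), with the number of genes above each bar and, for lower calls, the number tested. Eif genes had 12 of 50 lower and 0 higher, against 839 lower and 1150 higher of 10736 genes tested, and 11 of 39 lower among Eif genes whose mean reached 50 FPKM.

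These calls rest on few libraries. With any 1 of the 4 libraries left out and the same genes tested, the calls of the Eif genes were lost. Their median log2 fold change was then -0.46 to -0.35. These smaller fits called almost nothing at all, with 13 of 10736 genes without day 5 replicate 2 and 0 without each of the others. With no filter on low FPKM, limma called only Eif2b3 among Eif genes, and 237 of 15168 genes in all. After quantile normalization, which moved the median of all genes to 0.01, the median of the Eif genes was -0.16, 8 were called lower, and Eif2s1, Eif2s3x, Eif3b and Eif3m no longer passed.

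The 3 subunits of eIF2 all fell, and Eif2s2, its beta subunit, had the lowest log2 fold change of any Eif gene tested. Eif2s2 had 117 and 122 FPKM on day 5, against 333 and 439 FPKM on day 0. Both day 5 libraries lay far below both day 0 libraries, at 30.9% of the day 0 mean (log2 fold change -1.67 ± 0.19 SE, limma adjusted p = 0.0121). Eif2s1, the alpha subunit that the stress kinases phosphorylate, had 119 and 121 FPKM on day 5, against 196 and 211 FPKM on day 0 (log2 fold change -0.76 ± 0.15 SE, limma adjusted p = 0.0333). Eif2s3x, the X-linked GTP-binding gamma subunit, had 202 and 164 FPKM on day 5, against 307 and 315 FPKM on day 0 (log2 fold change -0.77 ± 0.18 SE, limma adjusted p = 0.0414). The near-identical Eif2s3y, outside the chosen set, was at 34.2 and 48.3 FPKM on day 5, against 47.8 and 46.8 FPKM on day 0. Reads may be split between the X and Y copies, so the fold of Eif2s3x is uncertain. On day 0 the alpha subunit was the lowest of the 3, at 203 ± 10.5 FPKM, against 311 ± 5.24 for gamma and 386 ± 75.3 for beta. On day 5 beta and alpha were level, at 119 ± 3.67 and 120 ± 1.35 FPKM, and gamma stood at 183 ± 26.9 FPKM (SD, n = 2 each day). The other 2 genes of this group encode single-chain proteins that can also deliver tRNA to the ribosome, and neither passed. Eif2a had 133 and 95.6 FPKM on day 5, against 108 and 110 FPKM on day 0, and Eif2d had 35.7 and 33.4 FPKM on day 5, against 35.4 and 24.3 FPKM on day 0. In both the groups overlapped.

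The promoters of the 3 eIF2 subunit genes are shown because these genes fell together. Each window runs from 250 bases before to 50 bases after the gene start in RefSeq (GRCm38.p6), 5′ to 3′ on the gene's strand. Eif2s1 is at chr12:78861822-78862121 (plus strand), Eif2s2 at chr2:154892857-154893156 (minus strand) and Eif2s3x at chrX:94212602-94212901 (minus strand). Capitals mark the letters GGAA or, for the other strand, TTCC, the core that ETS factors such as PU.1 bind.
Eif2s1: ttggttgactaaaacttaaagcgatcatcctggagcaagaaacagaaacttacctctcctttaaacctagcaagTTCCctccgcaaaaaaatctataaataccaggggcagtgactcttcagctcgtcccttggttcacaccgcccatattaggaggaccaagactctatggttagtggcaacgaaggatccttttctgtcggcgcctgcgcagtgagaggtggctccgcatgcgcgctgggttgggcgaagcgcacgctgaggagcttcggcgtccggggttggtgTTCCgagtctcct
Eif2s2: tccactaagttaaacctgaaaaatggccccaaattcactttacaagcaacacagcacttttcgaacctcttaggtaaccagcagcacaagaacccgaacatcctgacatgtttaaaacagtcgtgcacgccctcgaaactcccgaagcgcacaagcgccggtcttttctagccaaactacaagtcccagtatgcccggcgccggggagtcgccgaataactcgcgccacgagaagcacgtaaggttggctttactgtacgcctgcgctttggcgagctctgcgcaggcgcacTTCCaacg
Eif2s3x: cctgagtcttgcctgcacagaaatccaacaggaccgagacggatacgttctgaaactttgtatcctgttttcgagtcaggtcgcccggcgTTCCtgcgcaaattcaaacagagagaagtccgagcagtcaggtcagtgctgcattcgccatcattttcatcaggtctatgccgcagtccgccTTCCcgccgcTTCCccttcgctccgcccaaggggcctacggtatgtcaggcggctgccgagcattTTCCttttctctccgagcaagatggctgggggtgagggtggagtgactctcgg
The windows held 2, 1 and 4 such matches in this order. A match is no sign of binding, since 96.5% of all 27025 genes with a promoter window had at least 1.

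eIF2B, the exchange factor that recharges eIF2, has 5 subunits, and the log2 fold change was below 0 for each of the 5, of which 2 passed. Over all genes tested, 42.1% had a value below 0 and 7.81% were called lower. Eif2b3, the gamma subunit of the catalytic part, had 33.8 and 32.8 FPKM on day 5, against 78.8 and 82.7 FPKM on day 0. The libraries of each day lay close together and the days did not overlap (log2 fold change -1.25 ± 0.17 SE, limma adjusted p = 0.0148). Eif2b1, the alpha subunit through which eIF2B senses phosphorylated eIF2, had 34.9 and 28.2 FPKM on day 5, against 68.8 and 65.1 FPKM on day 0 (log2 fold change -1.07 ± 0.19 SE, limma adjusted p = 0.0265). Eif2b5, the catalytic subunit itself, had 42.4 and 36.3 FPKM on day 5, against 71.2 and 57.3 FPKM on day 0, without passing (limma adjusted p = 0.0678). Eif2b2 and Eif2b4 had log2 fold changes of -0.57 and -0.30 and did not pass. Summed over the subunits, eIF2B genes held 194 and 176 FPKM on day 5, against 344 and 298 FPKM on day 0.

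**Figure D2:**
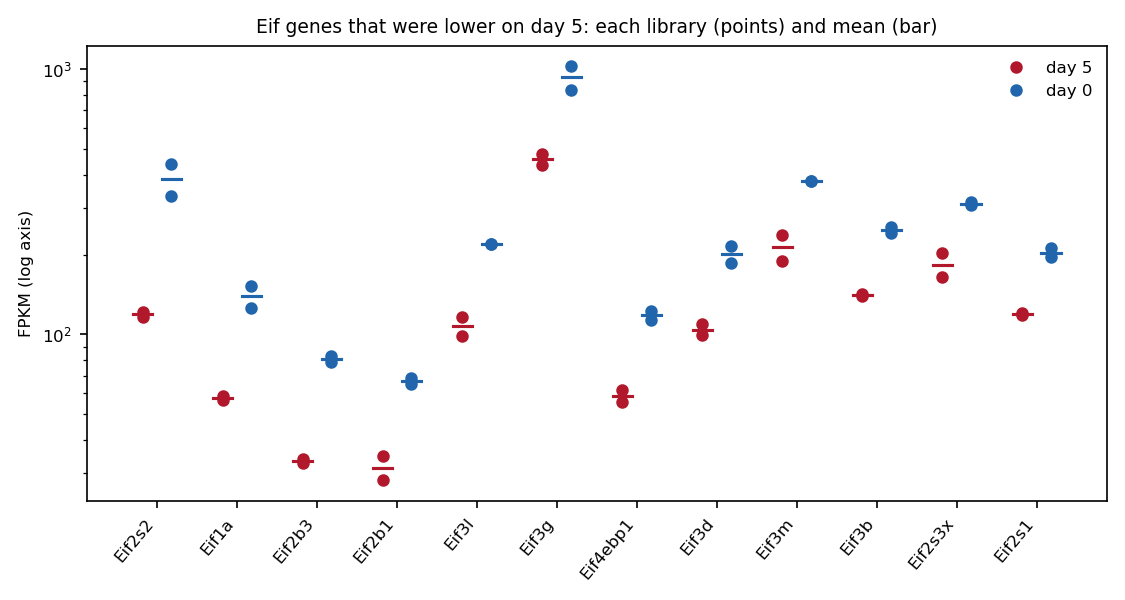
Points are the FPKM of each library on a log axis for the 12 Eif genes that passed the threshold, with day 5 left of day 0 and bars at the mean of 2 libraries, ordered by log2 fold change. In each of the 12 genes both day 5 libraries lie below both day 0 libraries, from Eif2s2 (log2 fold change -1.67) to Eif2s1 (-0.76). The genes were picked by the threshold on the same libraries, which favors this order, and 27.0% of all genes tested showed it.

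eIF3 is the largest initiation factor and keeps the ribosomal subunits apart while it binds mRNA. Of its 13 listed genes 5 fell, 0 rose and 8 did not pass, with a median log2 fold change of -0.62. Over all genes tested, 7.81% were called lower. Among genes whose mean reached 50 FPKM, as in all eIF3 genes but Eif3j, 17.9% were called lower and the median was -0.18. Eif3l had 98.3 and 116 FPKM on day 5, against 219 FPKM in both day 0 libraries (log2 fold change -1.03 ± 0.17 SE, limma adjusted p = 0.0221). Eif3g, an RNA-binding subunit, was the most abundant eIF3 gene on day 0, with 479 and 436 FPKM on day 5, against 836 and 1024 FPKM on day 0 (log2 fold change -1.01 ± 0.19 SE, limma adjusted p = 0.0276). Eif3d, known as a subunit able to bind the cap of certain mRNAs, had 109 and 99.6 FPKM on day 5, against 215 and 186 FPKM on day 0 (log2 fold change -0.93 ± 0.17 SE, limma adjusted p = 0.0267). Eif3b, a core scaffold, had 139 and 141 FPKM on day 5, against 241 and 254 FPKM on day 0 (log2 fold change -0.82 ± 0.15 SE, limma adjusted p = 0.0284). In each of these 4 genes, named because they passed, the days were apart by more than the libraries of a day. Eif3m, a further subunit, fell by 0.83 on the log2 scale (limma adjusted p = 0.0367).

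The other eIF3 genes spread from near these values to no difference. Eif3a, the largest scaffold subunit, had 220 and 236 FPKM on day 5, against 324 and 379 FPKM on day 0, and missed the threshold (log2 fold change -0.62, limma adjusted p = 0.0589). Eif3c, Eif3e, Eif3i and Eif3k had log2 fold changes of -0.50, -0.40, -0.38 and -0.24, each with both day 5 libraries below both day 0 libraries, an order that 27.0% of all genes tested showed. After quantile normalization Eif3k was at 0.06. Eif3f had 0.10 and Eif3h 0.16, and in both the days overlapped. Eif3h was uneven on day 5, with 565 and 331 FPKM, against 402 and 374 FPKM on day 0, and had -0.23 without the higher of them. Leaving out Eif3j, the 12 other subunit genes ranged over 5.75-fold and 4.38-fold in the day 5 libraries and over 5.54-fold and 7.79-fold in the day 0 libraries, so their RNA levels were unequal on both days. Eif3j, a loosely bound subunit, was listed at only 1.7 and 2.19 FPKM on day 5, against 4.40 and 4.93 FPKM on day 0. A near-identical copy, listed as Gm9781 and named Eif3j2 in the reference gene table, held 51.8 and 71.0 FPKM on day 5, against 95.7 and 115 FPKM on day 0. Reads cannot be parted surely between these copies, so the level of either is uncertain. Their sum was 63.4 ± 13.9 FPKM on day 5 and 110 ± 14.1 FPKM on day 0 (SD, n = 2 each day).

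Start site selection is set by eIF1, eIF1A and eIF5, which make the scanning ribosome accept or pass an AUG. Eif1a alone passed, with 56.5 and 58.6 FPKM on day 5, against 126 and 152 FPKM on day 0 (log2 fold change -1.25 ± 0.18 SE, limma adjusted p = 0.0166). Its X-linked paralog Eif1ax had 70.3 and 64.3 FPKM on day 5, against 85.4 and 91.2 FPKM on day 0, without passing (log2 fold change -0.39). The order of the pair turned round: Eif1ax made up 55.4% and 52.3% of their summed FPKM on day 5, against 40.4% and 37.5% on day 0. The paralogs encode almost the same protein, so the counting of reads could shift between them. Eif1, which guards against starting at a wrong codon, pointed the other way, with 315 and 307 FPKM on day 5, against 192 and 237 FPKM on day 0 (log2 fold change 0.54 ± 0.18 SE, limma adjusted p = 0.0848). It did pass as higher after quantile normalization. Eif1b, its paralog, had 52.1 and 82.2 FPKM on day 5, against 57.3 and 65.9 FPKM on day 0, so that the groups overlapped. Eif5, which makes eIF2 hydrolyze its GTP, and Eif1ad, named for its likeness to eIF1A, had -0.31 and -0.38 and did not pass.

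**Figure D3:**
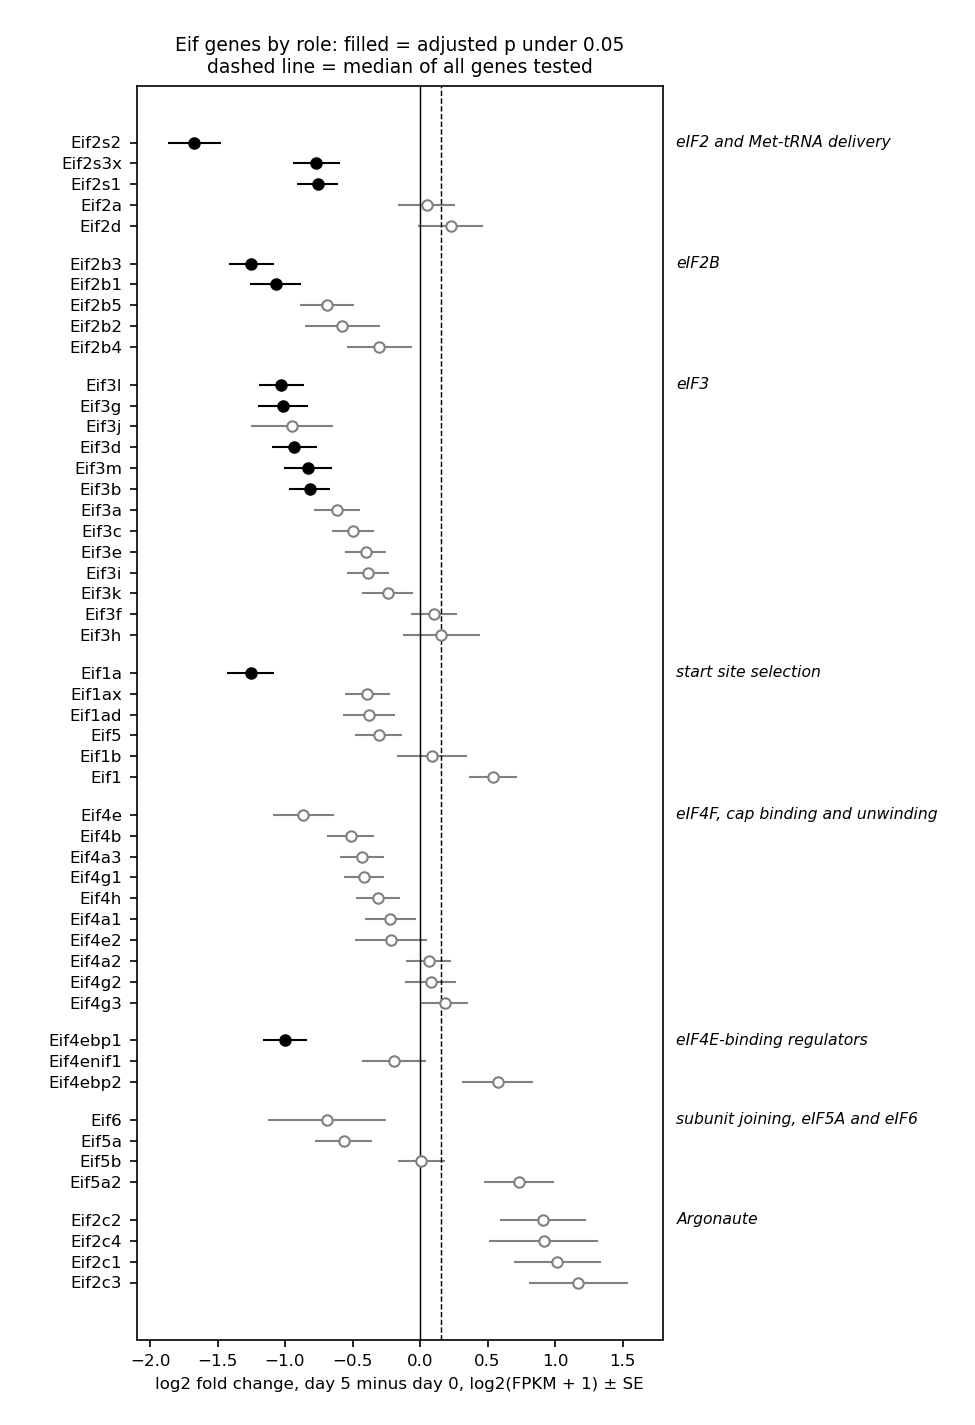
Each point is the log2 fold change of 1 Eif gene, day 5 minus day 0 on the log2(FPKM + 1) scale, with its standard error, grouped by role; filled points passed a limma adjusted p of 0.05. The 12 filled points all lie left of 0, the 4 tested Argonaute genes (0.91 to 1.17) lie to the right, and the dashed line marks the median of all genes tested (0.15).

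Of the 10 genes tested around cap binding, limma called 0, and their median log2 fold change was -0.27. At an unadjusted p under 0.05, 4 were lower on day 5 (Eif4e, Eif4b, Eif4g1 and Eif4a3), as were 15.6% of all genes tested. The 2 with the highest level were Eif4g2 and Eif4a1. Eif4g2, an eIF4G relative that lacks the part binding eIF4E, had 841 and 780 FPKM on day 5, against 687 and 853 FPKM on day 0. Eif4a1, the main RNA helicase of the complex, had 673 and 533 FPKM on day 5, against 684 and 712 FPKM on day 0 (log2 fold change -0.22, and 0.04 after quantile normalization). In Eif4g2 the days overlapped, and in Eif4a1 the upper day 5 library nearly reached day 0. Eif4e, the cap-binding protein, lay closest to the threshold, with 92.2 and 69.3 FPKM on day 5, against 129 and 166 FPKM on day 0 (log2 fold change -0.86 ± 0.23 SE, limma adjusted p = 0.0544). It passed when genes needed 5 FPKM to be tested. Eif4g1, the main scaffold, had 180 and 178 FPKM on day 5, against 239 FPKM in both day 0 libraries (log2 fold change -0.41, limma adjusted p = 0.107). Eif4b and Eif4h, which stimulate the helicase, had -0.51 and -0.31. Eif4a3, a helicase of the exon junction complex and not of initiation, had -0.43. Eif4a2, Eif4e2 and Eif4g3 had 0.06, -0.21 and 0.18. The oocyte form Eif4e1b was listed at 0 and Eif4e3 at practically 0 in all 4 libraries. In the reference gene table the identifier of that Eif4e3 row carries another symbol, Gm20696.

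Promoters of Eif4e and Eif4g1 are shown for the E-box CACGTG, the palindrome that Myc and its partners bind, which reads the same on both strands and is in capitals below. The windows are chr3:138527018-138527317 for Eif4e, the second of its listed starts, and chr16:20672477-20672776 for Eif4g1, both on the plus strand of GRCm38.p6 from RefSeq. Of the 2 windows of Eif4e only 1 held CACGTG, and the other is not shown.
Eif4e: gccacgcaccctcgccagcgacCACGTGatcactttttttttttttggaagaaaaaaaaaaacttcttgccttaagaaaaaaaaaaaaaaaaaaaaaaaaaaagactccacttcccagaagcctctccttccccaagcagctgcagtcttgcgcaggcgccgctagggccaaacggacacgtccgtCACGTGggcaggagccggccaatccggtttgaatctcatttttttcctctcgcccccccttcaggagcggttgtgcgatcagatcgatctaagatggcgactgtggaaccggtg
Eif4g1: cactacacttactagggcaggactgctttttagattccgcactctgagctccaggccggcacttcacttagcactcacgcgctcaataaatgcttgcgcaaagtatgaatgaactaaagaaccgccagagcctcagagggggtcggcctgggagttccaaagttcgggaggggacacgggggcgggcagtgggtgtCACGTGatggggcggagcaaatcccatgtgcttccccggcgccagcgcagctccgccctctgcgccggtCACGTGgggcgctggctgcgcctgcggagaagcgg
Each window shown held 2 matches, and that of Eif4e was picked because it held the motif. Of 42 Eif genes with a promoter window in RefSeq 10, or 23.8%, had the E-box in at least 1 window, against 8.09% of all 27025 genes with one. All 10 were genes that did not pass: Eif3a, Eif3f, Eif3k, Eif4a1, Eif4e, Eif4g1, Eif4h, Eif1b, Eif5a and Eif5a2. Of the 12 genes that fell 9 had a window, and 0 of these 9 windows held CACGTG. The 12 Eif genes without a window here were Eif1a, Eif2b3, Eif2c2, Eif3e, Eif3h, Eif3i, Eif4e1b, Eif4e3, Eif4ebp1, Eif4ebp3, Eif4g2 and Eif6. The 27025 genes were not limited to those expressed in MEL cells, and no share was computed for genes at a like level. These are counts of letters in short windows, with no test.

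The eIF4E-binding proteins hold eIF4E away from eIF4G unless the TOR kinase phosphorylates them. Eif4ebp1 fell, with 61.5 and 55.4 FPKM on day 5, against 122 and 114 FPKM on day 0 (log2 fold change -1.0 ± 0.16 SE, limma adjusted p = 0.0226). Eif4ebp2 was higher in both day 5 libraries, at 75.5 and 49.3 FPKM, against 45.0 and 36.6 FPKM on day 0, but did not pass (log2 fold change 0.58, limma adjusted p = 0.172). That order, with both day 5 libraries on top, was seen in 40.2% of all genes tested. Eif4ebp3 was listed at practically 0 on day 5, against 18.8 and 0.504 FPKM on day 0, which differ too much to give a level, and was not tested. Eif4enif1, which carries eIF4E into the nucleus, had -0.19 and overlapping groups. The summed eIF4E-binding proteins per unit of Eif4e were 1.48 and 1.51 on day 5, against 1.44 and 0.909 on day 0, so the day 0 libraries differed more from each other than the higher of them did from day 5. This sum includes Eif4ebp3, so the value of 1.44 rests in part on its uncertain 18.8 FPKM.

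The last steps of initiation and the factors beside them gave no call among 4 genes in limma. At an unadjusted p under 0.05 there were 2, Eif5a lower and Eif5a2 higher on day 5. Over all genes tested, 38.6% reached that level in either direction. Eif5a, a hypusine-bearing factor that keeps ribosomes moving, was the most abundant Eif gene, with 951 and 1073 FPKM on day 5, against 1712 and 1306 FPKM on day 0. Both day 5 libraries were lower, but day 0 was uneven and the gene did not pass (log2 fold change -0.57 ± 0.21 SE, limma adjusted p = 0.116). Eif5a2, its rarer paralog, had 17.7 and 13.9 FPKM on day 5, against 8.06 and 10.1 FPKM on day 0 (log2 fold change 0.73, limma adjusted p = 0.102). Eif6, which keeps the large ribosomal subunit from joining too early, had 102 and 57.4 FPKM on day 5, against 180 and 86.0 FPKM on day 0, so the groups overlapped. Eif5b, the GTPase of subunit joining, was level, with 76.1 ± 1.59 FPKM on day 5 and 75.9 ± 8.83 FPKM on day 0 (SD, n = 2 each day).

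Beside the pair of eIF1A genes, 4 more pairs of paralogs were compared by share. Eif4g3 made up 18.7% and 17.7% of the summed FPKM of Eif4g1 and Eif4g3 on day 5, against 12.8% and 12.7% on day 0, a difference of 5.43 percentage points that was 2.44 after quantile normalization. Eif4a2 made up 29.3% and 31.2% of Eif4a1 and Eif4a2 on day 5, against 25.6% and 26.9% on day 0. Eif5a2 made up 1.83% and 1.28% of both eIF5A genes on day 5, against 0.468% and 0.769% on day 0. Eif1b made up 14.2% and 21.2% of Eif1 and Eif1b on day 5, against 23.0% and 21.8% on day 0. In each of the 5 pairs, eIF1A included, the shares of the days did not overlap. For levels of single genes, 27.0% of all genes tested had both day 5 libraries below day 0, and 40.2% had both above. Only 3523 of the 10736 genes overlapped. How often shares of other gene pairs fail to overlap was not computed. For Eif1b the nearest shares were 21.2% on day 5 and 21.8% on day 0. Its difference of -4.73 percentage points was -1.24 without day 5 replicate 1. With 2 against 2 libraries the exact two-sided permutation p was 0.33 for each pair and for the ratio of binding proteins to Eif4e, the smallest such a design allows, and 0.33 after adjustment over the 6 comparisons.

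**Figure D4:**
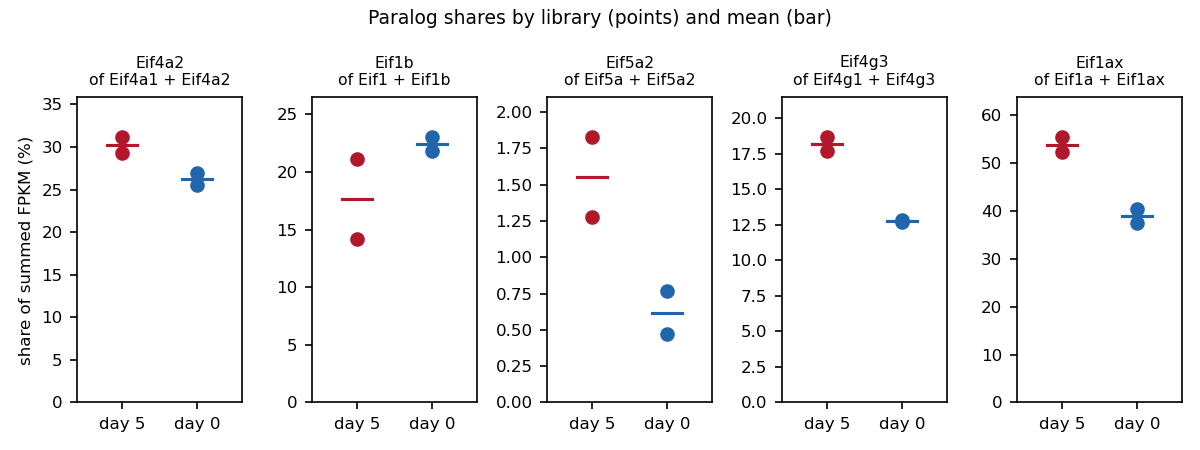
Each panel gives the share of 1 paralog in the summed FPKM of its pair, in percent, with a point for each library and a bar at the mean, day 5 left of day 0. The scales differ between panels and start at 0; the widest gap is that of Eif1ax, at 55.4% and 52.3% on day 5, against 40.4% and 37.5% on day 0.

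The Argonaute genes, present only through their old names, encode the proteins that load microRNAs and silence their targets. All 4 tested had higher values in both day 5 libraries than in either day 0 library, as did 40.2% of all genes tested. Of the 4, limma called 0, and 3 were higher at an unadjusted p under 0.05, as were 23.0% of all genes tested. Eif2c1 had 11.3 and 13.6 FPKM on day 5, against 7.28 and 4.29 FPKM on day 0 (log2 fold change 1.02 ± 0.32 SE, limma adjusted p = 0.0787). Eif2c2, the Argonaute able to cut its targets, had 12.3 and 10.1 FPKM on day 5, against 7.05 and 4.18 FPKM on day 0 (log2 fold change 0.91, limma adjusted p = 0.101). Eif2c3 and Eif2c4, at lower levels, had 1.17 and 0.92. Eif2c1, Eif2c3 and Eif2c4 are next to one another on chromosome 4 in the reference annotation, while Eif2c2 is on chromosome 15. Eif2c5 was listed at 0 or practically 0 in all 4 libraries. Without the Argonaute genes, 12 of 46 Eif genes fell and the median log2 fold change was -0.41.

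Other genes of translation were taken from short lists, with 50 genes outside the chosen set. Over all genes tested, 7.81% were called lower and 10.7% higher, to be set beside each count of these lists here and below. For genes whose mean reached 50 FPKM, as in many of these lists, the shares were 17.9% lower and 9.90% higher. Of the 50 listed genes 48 were tested, 9 fell and 10 rose. With any 1 library left out and the same genes tested, limma called 0 of them. Of the 4 kinases that phosphorylate eIF2, 2 rose, 0 fell and 2 did not pass. Eif2ak1, the heme-regulated kinase, had 67.0 and 46.9 FPKM on day 5, against 18.4 and 19.4 FPKM on day 0 (log2 fold change 1.52 ± 0.24 SE, limma adjusted p = 0.0198). Eif2ak2, the kinase activated by double-stranded RNA, had 33.6 and 26.5 FPKM on day 5, against 13.1 and 15.2 FPKM on day 0 (log2 fold change 1.03). Both phosphatase subunits that undo this phosphorylation rose. Ppp1r15a, the stress-induced subunit, had 53.8 and 61.1 FPKM on day 5, against 19.1 and 15.5 FPKM on day 0 (log2 fold change 1.68 ± 0.20 SE, limma adjusted p = 0.0131). Ppp1r15b, the constant one, had a log2 fold change of 1.08.

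Of 13 genes tested that govern TOR and eIF4E, 4 rose and 0 fell. Pdcd4, an inhibitor of the helicase eIF4A, had 84.2 and 84.0 FPKM on day 5, against 17.8 and 7.60 FPKM on day 0 (log2 fold change 2.74 ± 0.39 SE, limma adjusted p = 0.0169). The difference is larger than the gap between the day 0 libraries. Mknk2 and Mknk1, the kinases that phosphorylate eIF4E, both rose. Mknk2 had 209 and 174 FPKM on day 5, against 39.1 and 37.1 FPKM on day 0 (log2 fold change 2.29 ± 0.18 SE, limma adjusted p = 0.00558), and was the only gene of these lists to pass with no filter on low FPKM. Mknk1 had 57.3 and 69.5 FPKM on day 5, against 14.2 and 10.3 FPKM on day 0. Tsc1, a brake on TOR, had a log2 fold change of 1.22. Mtor itself had 15.7 and 13.9 FPKM on day 5, against 9.68 and 8.26 FPKM on day 0, without passing (limma adjusted p = 0.102).

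Among genes of the later steps, 3 of 8 elongation genes fell and 0 rose. Eef1e1, which belongs to the aminoacyl-tRNA synthetase complex more than to elongation, had 30.1 and 41.2 FPKM on day 5, against 116 and 126 FPKM on day 0 (log2 fold change -1.75). Eef1d, an exchange factor subunit for eEF1A, had -0.93. The main elongation factors did not pass, Eef1a1 at 7562 and 6768 FPKM on day 5, against 6156 and 5221 FPKM on day 0, and Eef2 at 1049 and 1018 FPKM on day 5, against 913 and 723 FPKM on day 0. Of 5 termination and recycling genes tested 4 fell. Mcts1 and Denr, partners that clear the small subunit and let it start again, had log2 fold changes of -2.06 and -1.74. Mcts1 had 20.3 and 17.3 FPKM on day 5, against 75.7 and 87.8 FPKM on day 0 (limma adjusted p = 0.00838), and its days lay widely apart.

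Of 5 genes that act on the poly(A) tail 2 rose and 0 fell. Paip1, a partner of the poly(A)-binding protein that aids translation, had a log2 fold change of 1.09, and Paip2b, a repressing partner, had 0.96. Pabpc1, the main poly(A)-binding protein, had 2117 and 1883 FPKM on day 5, against 1901 and 2055 FPKM on day 0, and overlapped. Of 9 mitochondrial translation genes 2 fell and 0 rose, the elongation factors Tufm (log2 fold change -1.16) and Tsfm (-1.05). Of the enzymes that put hypusine on eIF5A neither passed. Dhps had a log2 fold change of -1.20 and Dohh one of 0.04.

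**Figure D5:**
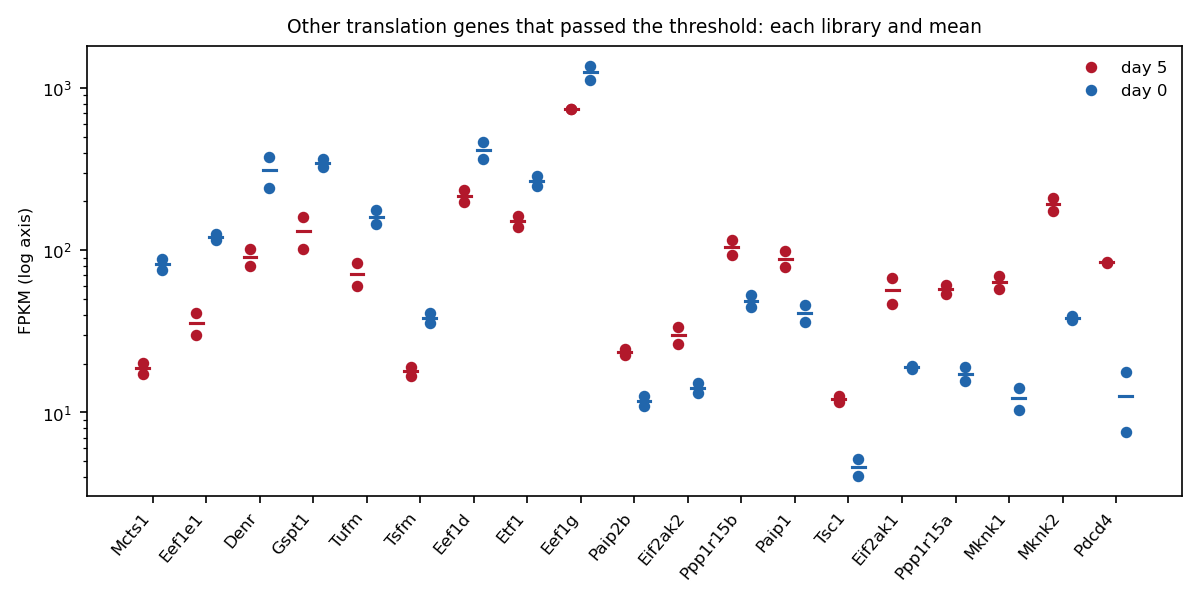
Points are the FPKM of each library on a log axis for the 19 other translation genes that passed the threshold, ordered by log2 fold change, with day 5 left of day 0 and bars at the mean. The 9 genes from Mcts1 to Eef1g have both day 5 libraries below day 0, and the 10 genes from Paip2b to Pdcd4 have both above. The genes were picked by the threshold on the same libraries, which favors such an order. Over all genes tested, 27.0% had both below and 40.2% both above.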

How the data were processed

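The authors deposited RNA levels as FPKM for every gene in 1 table that covers 4 libraries; stranded libraries of total RNA are described in the labels' protocols. The submitters' processing notes name Bowtie and the mm9 build, and the quantifier and gene set are not given in the sources used here. Many values above 0 are far below 1 read (1390 to 1511 per library under 1e-06 FPKM), so they are estimates that hold no whole reads, depth is unknown and no counting interval is given. Rows at or near 0 may be failed estimates.

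A gene was tested if 2 or more libraries had 1 FPKM or more (10736 genes). Values were taken as log2(FPKM + 1), so fold changes understate those of low genes. Moderated two-sided tests of limma 3.58.1, run under R 4.3.3 with an intensity trend in eBayes, compared day 5 with day 0 over all genes, with Benjamini-Hochberg adjustment. The fit was tested on simulated data. Sample titles gave the day and the replicate number. Eif genes were matched by symbol and all 54 identifiers were found in the reference gene table. In each role group, values per library were given for up to 4 called genes with the smallest adjusted p, or for the 2 most abundant where none was called. Values per library of some other genes were added after they were seen. Members, lists and tests were chosen with earlier results of these data known. Alternatives were the pseudocount, the filter, the scaling, the eBayes trend, a replicate block and leaving out each library. Promoters came from RefSeq (GRCm38.p6). 1 marker gene is not reported here.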

Additional observations from a re-analysis of the deposited data

How the results depend on the processing

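The count of 12 Eif genes called lower was 12 with a pseudocount of 0.1, 13 with a filter of 5 FPKM, 11 without globin and mitochondrially encoded genes, 8 after quantile normalization, 7 with no eBayes trend and 1 with no filter. Leaving out 1 library gave 0 with the same genes tested, in fits that called 0 to 13 of all 10736 genes, and, when the filter was reapplied to the 3 remaining libraries (added after seeing the data), 4 and 5 without day 5 replicate 1 and 2 and 1 and 0 without day 0 replicate 1 and 2; a day with 1 library was then assumed to vary like the other. Quantile normalization gave 1 gene called higher (Eif1), and 0 were called higher under all the other settings. The median log2 fold change of the Eif genes was -0.16 after quantile normalization, -0.30 without globin and mitochondrially encoded genes, and -0.46 to -0.35 with 1 library left out. With a replicate block the counts were 12 and 0 and the median -0.39. Deviations of same-numbered libraries correlated at 0.048 over all tested genes, so no strong shared replicate effect was seen. Whether same-numbered cultures were paired cannot be read from this value. Other translation genes called lower numbered 9, against 5 with no trend, 0 with no filter and, with 1 library left out, 0 (same genes) or 0 to 6 (filter reapplied); those called higher numbered 10, against 1 with no filter and, with 1 library left out, 0 (same genes) or 0 to 7 (filter reapplied), and 8 and 7 with the replicate block.

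The direction turned after quantile normalization for Eif3k (0.06) and Eif4a1 (0.038), both not called. With 1 library left out the log2 fold change took both signs for Eif1b (-0.235 to 0.41), Eif2a (-0.19 to 0.29), Eif2d (-0.035 to 0.49), Eif3h (-0.23 to 0.54), Eif4a2 (-0.041 to 0.17), Eif4e2 (-0.57 to 0.14), Eif4enif1 (-0.47 to 0.087), Eif4g2 (-0.075 to 0.24) and Eif5b (-0.11 to 0.13). The 12 called genes kept their direction in each setting tried. The difference in the Eif4g3 share was 5.43 percentage points and 2.44 after quantile normalization. The promoter comparison with PU.1 peaks and DNase sites was not run, for want of mm9 gene positions.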
